A study of Homo sapiens with 8 samples.

Results

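The 6 genes described here act at successive steps of WNT signaling: *WLS* in the secretion of WNT ligands, *WIF1*, *DKK1*, *DKK3* and *SFRP5* as secreted proteins grouped with the inhibitors of the pathway, and *BCL9L* in the nucleus. They were chosen by gene symbol, with earlier results of these same arrays in view. All 6 were measured, by 7 of the 16377 transcript clusters of the table used here, since *BCL9L* had 2 clusters. A transcript cluster is the array's unit for a gene. RNA came from clonal isolates of LNCaP, an established human prostate tumor cell line, obtained by serial dilution after transduction. One set was 4 isolates stably over-expressing the linker histone gene *HIST1H1A* (clones 2, 8, 9 and 10), and the other was 4 isolates with the control vector (clones 3, 4, 8 and 9). Both groups had gone through lentiviral transduction and blasticidin selection. Each clone had 1 Affymetrix Human Gene 2.0 ST array, so differences between clones and differences in measurement could not be told apart.

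WNT ligands are lipid-modified proteins that need the membrane protein Wntless, the product of *WLS*, to travel to the cell surface. Outside the cell, WIF1 and the secreted frizzled-related proteins bind the ligands, and DKK1 blocks the LRP co-receptors. Inside the cell, the signal stabilizes beta-catenin, which enters the nucleus and activates target genes together with TCF/LEF factors, BCL9 or BCL9L and the Pygopus proteins. In the prostate the pathway is known for its part in epithelial growth and in tumor progression.

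The promoters of *WLS*, *WIF1* and *DKK1* are shown because these are the genes with the largest positive differences among the 6, and because *DKK1* is itself a known target of beta-catenin. Each sequence is the 250 bases before the RefSeq transcription start, in GRCh38.p14, read 5′ to 3′ on the strand of the gene. *WLS* has 2 starts in the RefSeq table, 23 bases apart, and the window shown is that of the outer one. Capitals mark CTTTGA, the core of the TCF/LEF site, on either strand.
WLS, chr1:68232547-68232796, minus strand: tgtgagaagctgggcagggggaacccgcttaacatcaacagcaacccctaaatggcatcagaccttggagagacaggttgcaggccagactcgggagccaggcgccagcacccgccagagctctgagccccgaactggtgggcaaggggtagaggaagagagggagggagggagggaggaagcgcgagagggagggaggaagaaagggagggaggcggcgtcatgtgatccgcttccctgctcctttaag
WIF1, chr12:65121306-65121555, minus strand: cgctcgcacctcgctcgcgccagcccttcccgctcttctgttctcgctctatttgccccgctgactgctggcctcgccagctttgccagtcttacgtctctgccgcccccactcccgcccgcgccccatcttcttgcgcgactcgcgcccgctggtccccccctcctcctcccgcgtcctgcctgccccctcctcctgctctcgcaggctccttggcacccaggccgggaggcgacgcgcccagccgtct
DKK1, chr10:52314031-52314280, plus strand: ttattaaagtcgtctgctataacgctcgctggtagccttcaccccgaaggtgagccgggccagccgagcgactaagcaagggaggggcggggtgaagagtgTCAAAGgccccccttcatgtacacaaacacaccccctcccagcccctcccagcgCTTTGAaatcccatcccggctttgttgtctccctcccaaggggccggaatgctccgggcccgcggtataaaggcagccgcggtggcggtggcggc

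Of the 6 genes, 4 matched the promoter table, the fourth being *SFRP5*. The TCF/LEF core occurred at 2 places in the *DKK1* window, starting 149 and 95 bases before the start site, and in none of the other 3 windows. Over all 35116 windows of this length, 11.2% held the core at least once. An AP-1 site (TGANTCA) and a ZEB-type E-box (CAGGTG) were also searched on both strands. Neither occurred in the 4 windows, where 6.57% and 17.5% of all windows held them. The window of the inner *WLS* start held none of the 3 motifs. The windows were rich in G and C, from 62.0% in *WLS* to 76.8% in *SFRP5*, against a median of 58.0% over all windows. A match of letters is a description of the sequence and not evidence of a bound site.

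Correlations between arrays across clusters were 0.964 to 0.977 among *HIST1H1A* clones and 0.932 to 0.967 among control clones. Between the groups they were 0.916 to 0.948, a range that overlaps the one among control clones. Array medians lay between 3.25 and 3.3 on the log2 scale. *HIST1H1A* itself was not analysed here. The study describes RT-qPCR and Western blots of the transgene in clonal isolates, which were not used here. Of 20 listed luminal prostate markers, which define the LNCaP cell type, 5 were measured, and all 5 were lower in *HIST1H1A* clones (adjusted p from 7.2e-06 for *EHF* to 0.020 for *KRT18*, from limma). The log2 of their summed signal was 7.26 to 7.40 in *HIST1H1A* clones and 10.2 to 10.8 in control clones. *FOLH1*, which encodes prostate-specific membrane antigen, averaged 2.65 in *HIST1H1A* clones, below 3.27, the median of all values, and 8.63 in control clones. Of 18 fibroblast and stromal markers 7 were measured, with a log2 summed signal of 7.70 to 7.87 in *HIST1H1A* clones and 6.46 to 6.51 in control clones. Only *VIM* among them passed, with means of 7.29 in *HIST1H1A* clones and 4.44 in control clones. The median log2 difference of the 7 was -0.005. The means of *DCN*, *LUM* and *S100A4* lay below the median of all values in both groups. They were 2.06, 2.34 and 2.66 in *HIST1H1A* clones and 2.07, 2.43 and 2.78 in control clones. The means of *THY1*, *TAGLN* and *MMP14* lay above it in both groups. They were 4.43, 3.80 and 3.60 in *HIST1H1A* clones and 4.70, 3.78 and 3.39 in control clones. Of 12 basal markers 2 were measured, and neither passed. These marker differences lie between the same clones as the comparisons below, and their part in those was not tested. In bulk RNA, fewer cells of a type and less RNA per cell cannot be told apart.

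*WLS* was higher in *HIST1H1A* clones by the largest amount of the 6 genes. Its log2 signal was 8.10, 8.48, 8.87 and 8.74 in *HIST1H1A* clones 2, 8, 9 and 10, against 5.79, 6.90, 4.98 and 5.11 in control clones 3, 4, 8 and 9. The groups did not overlap, and the lowest *HIST1H1A* clone stood above the highest control clone. The means were 8.55 ± 0.34 in *HIST1H1A* clones and 5.70 ± 0.88 in control clones (SD, n = 4 each), a log2 difference of 2.85 (standard error 0.40) or 7.22-fold. By size this difference ranked 64 among the 16377 clusters. Control clone 4 had the highest *WLS* signal of its group, and without it the log2 difference was 3.25. Without control clone 8, the lowest, it was 2.61.

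The control clones differed among themselves in *WLS* over a range of 1.91 on the log2 scale, and the *HIST1H1A* clones over 0.77. The SD of the control clones was thus 2.56 times that of the *HIST1H1A* clones. Over all clusters the median of this ratio was 1.3, and 65.0% of clusters spread more among control clones. A wider spread in the control group was therefore common to most of the table.

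*WIF1*, which encodes a secreted protein that binds WNT ligands, was higher in every *HIST1H1A* clone than in any control clone. Its log2 signal was 2.91, 3.47, 3.20 and 3.37 in *HIST1H1A* clones 2, 8, 9 and 10, against 2.62, 2.76, 2.84 and 2.49 in control clones 3, 4, 8 and 9. *HIST1H1A* clone 2 lay closest to the control clones, just above control clone 8. The means were 3.24 ± 0.25 in *HIST1H1A* clones and 2.68 ± 0.16 in control clones (SD, n = 4 each), a log2 difference of 0.56 (standard error 0.15) or 1.47-fold. In both groups the mean was under 3.27, the median of all values. No background level was used here, so the fold rests on low signals.

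*DKK1*, the inhibitor that binds LRP5 and LRP6, overlapped between the groups. Its log2 signal was 2.63, 3.04, 2.89 and 2.86 in *HIST1H1A* clones 2, 8, 9 and 10, against 2.74, 2.23, 2.83 and 2.42 in control clones 3, 4, 8 and 9. The log2 difference was 0.30 (standard error 0.16), with means of 2.85 ± 0.17 in *HIST1H1A* clones and 2.55 ± 0.28 in control clones (SD, n = 4 each). Control clones 3 and 8 were higher than *HIST1H1A* clone 2, and all 8 values lay below the median of all values. *DKK3*, a divergent member of the family whose action on WNT signaling is less settled, had log2 signals of 3.57, 3.43, 3.73 and 3.63 in *HIST1H1A* clones 2, 8, 9 and 10, against 3.87, 3.56, 3.18 and 3.25 in control clones 3, 4, 8 and 9. Its groups overlapped, with the *HIST1H1A* clones inside the range of the control clones, and the log2 difference was 0.13 (standard error 0.17).

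*SFRP5*, a secreted protein with a frizzled-like domain, did not separate the groups either. Its log2 signal was 4.86, 5.15, 4.93 and 4.58 in *HIST1H1A* clones 2, 8, 9 and 10, against 5.21, 4.81, 4.82 and 4.27 in control clones 3, 4, 8 and 9. The highest and the lowest of the 8 values were both control clones. The log2 difference was 0.10 (standard error 0.21), and it was -0.06 without control clone 9. The differences of *DKK3* and *SFRP5* were smaller than their standard errors, so neither a change nor an equal level was shown.

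*BCL9L*, whose product links beta-catenin to the Pygopus proteins, was lower in *HIST1H1A* clones in its brighter cluster and not clearly different in its dimmer one. Brighter here means a higher mean over all 8 arrays, a rank that rests on the control clones (means of 6.80 and 6.24). In *HIST1H1A* clones the cluster called brighter averaged 5.83 and the other 6.09. The choice of this cluster thus favored a lower signal in *HIST1H1A* clones. In the brighter cluster the log2 signal was 5.72, 6.04, 5.94 and 5.63 in *HIST1H1A* clones 2, 8, 9 and 10, against 7.09, 7.11, 6.66 and 6.33 in control clones 3, 4, 8 and 9. The groups did not overlap, and control clone 9 lay nearest to the *HIST1H1A* clones. The means were 5.83 ± 0.19 in *HIST1H1A* clones and 6.80 ± 0.37 in control clones (SD, n = 4 each), a log2 difference of -0.96 (standard error 0.20), or 1.95-fold lower.

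The dimmer *BCL9L* cluster had a log2 signal of 6.11, 5.73, 6.39 and 6.13 in *HIST1H1A* clones 2, 8, 9 and 10, against 6.38, 5.98, 6.53 and 6.09 in control clones 3, 4, 8 and 9. These groups overlapped, and the log2 difference was -0.15 (standard error 0.18). With the mean of both clusters in place of the brighter one, the log2 difference of *BCL9L* was -0.56. Cluster identifiers run in blocks by strand. Of the 10 named clusters nearest in number to the brighter *BCL9L* cluster whose gene has a strand in the RefSeq promoter table, 9 belonged to genes on the minus strand, and of the 10 nearest to the dimmer cluster 9 belonged to genes on the plus strand. *BCL9L* had no entry in that table, and the strand that each cluster reads was not checked further.

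**Figure D1:**
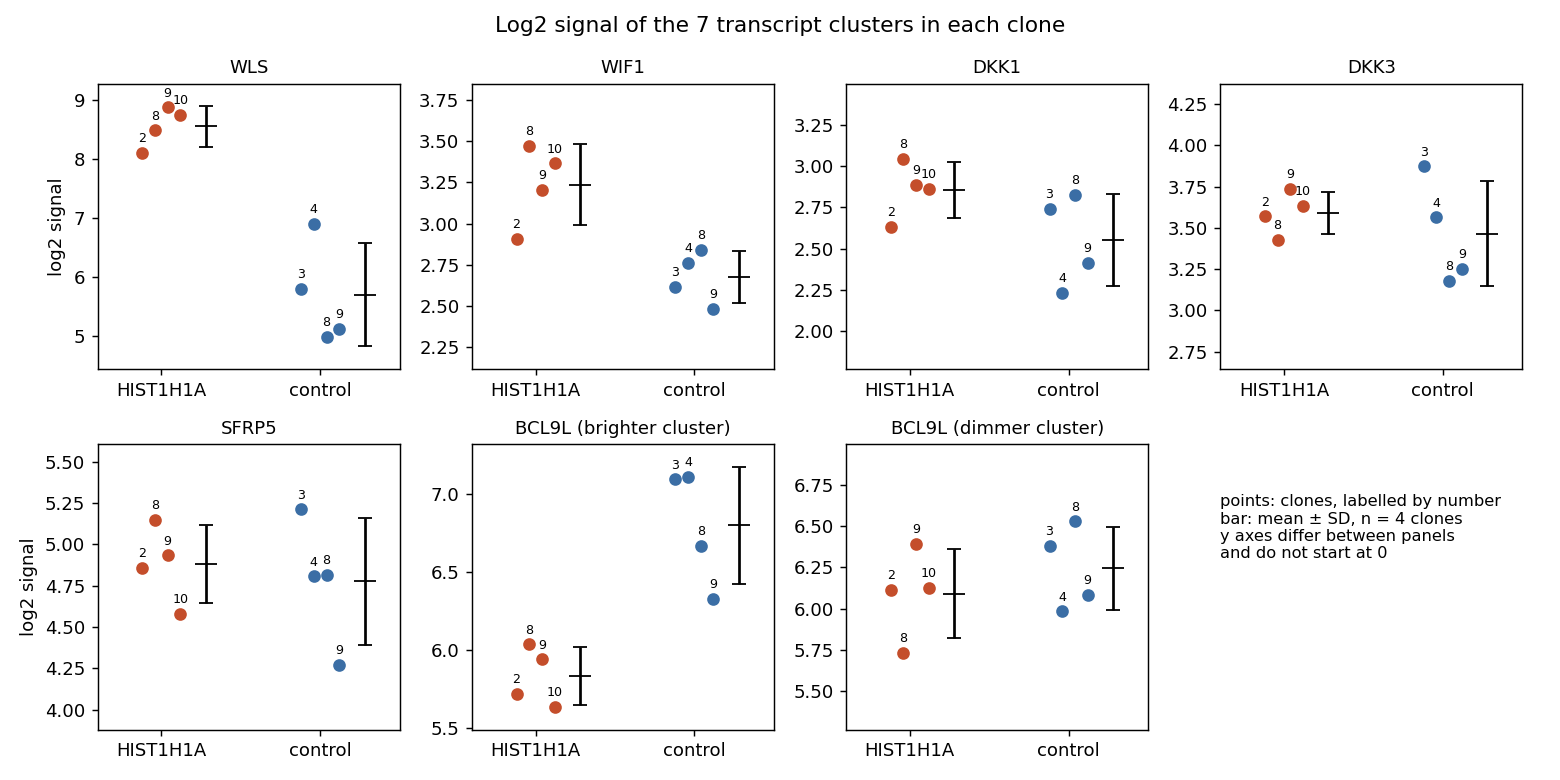
Log2 signal (y axis, not starting at 0 and differing between panels) of the 7 transcript clusters in each clone, with *HIST1H1A* clones left and control clones right. Points are clones, labelled by clone number, and bars are the mean ± SD of 4 clones. The groups are separate in *WLS*, *WIF1* and the brighter *BCL9L* cluster and overlap in the other 4 clusters.

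In the limma fit across all clusters, 2 of the 7 clusters passed at a Benjamini-Hochberg adjusted p under 0.05, where 5.79% of all 16377 clusters passed. *WLS* was higher, as were 3.77% of all clusters, and the brighter *BCL9L* cluster was lower, as were 2.02%. Among the 4072 named genes, each by its brightest cluster, 12.5% passed, 8.72% higher and 3.83% lower. The groups did not overlap in 3 of the 7 clusters, where 11.1% of all clusters did not overlap, 6.47% higher and 4.62% lower. The median log2 difference was 0.21 over the 6 genes and 0.03 over all named genes. Because the 6 genes were proposed with this comparison in view, these counts are a description and nothing is read from them. The *BCL9L* call was lost when *HIST1H1A* clone 2, 9 or 10 or control clone 3 or 4 was left out, with log2 differences between -1.12 and -0.86 when any 1 array was left out. The *BCL9L* call was also lost with the methods' t-test, with a fold minimum of 2 and with the mean over its clusters. The *WLS* call was kept when any 1 array was left out and in those 3 settings. Calls kept or lost for the 6 genes rest on the same comparison and are a description as well. *WIF1* passed with quantile normalization, over named clusters only and without *HIST1H1A* clone 2.

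**Figure D2:**
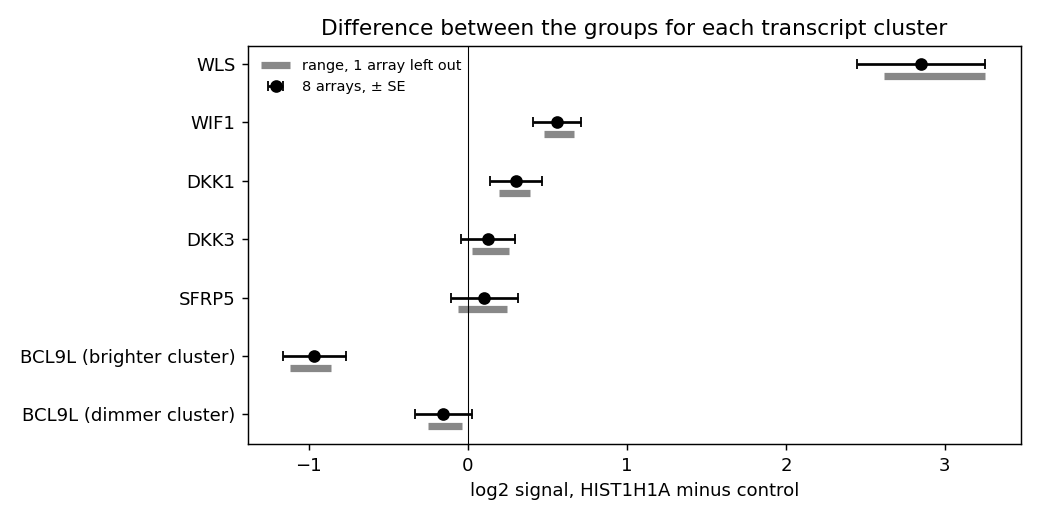
Log2 difference, *HIST1H1A* minus control (x axis), for each of the 7 transcript clusters. Points with bars are the estimate from 8 arrays ± its standard error, and grey bars span the estimates with 1 array left out. *WLS* stays between 2.61 and 3.25, *BCL9L* in its brighter cluster between -1.12 and -0.86, and *SFRP5* spans 0.

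The other genes of the WNT pathway were taken from 7 lists by role, with 171 genes outside the 6 described above. Of these, 37 were measured, and 7 were higher in *HIST1H1A* clones, 1 was lower and 29 did not pass (limma, adjusted over all 16377 clusters). That is 21.6% passing, beside 12.5% of all named genes. The lists were chosen with earlier results of these data known, so this share is a description and nothing is read from it. The 19 listed WNT ligands, the cargo of Wntless, were not analysed here.

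Next to *WLS* in the secretory pathway, 6 of 13 other listed genes were measured, and none passed with limma over all clusters or with the methods' t-test, while 1 had an unadjusted p under 0.05. This was *TRABD2B*, which encodes a membrane protease that inactivates WNT ligands, with log2 signals of 5.21, 6.46, 5.64 and 4.81 in *HIST1H1A* clones 2, 8, 9 and 10, against 4.90, 4.49, 4.06 and 3.93 in control clones 3, 4, 8 and 9. The groups overlapped, and the log2 difference was 1.18 (standard error 0.36, adjusted p = 0.12 from limma). With the mean over both of its clusters the difference was 0.65, and over named clusters only *TRABD2B* passed. The retromer genes *VPS26A*, *VPS26B* and *VPS29*, which recycle Wntless in the cell, and the cargo receptor genes *TMED2* and *TMED5* had log2 differences between -0.39 and 0.19. Among the inhibitors only *DRAXIN* was measured beside *WIF1*, *DKK1*, *DKK3* and *SFRP5*, with a log2 difference of -0.06 (standard error 0.11, adjusted p = 0.90 from limma).

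Of the receptors and co-receptors, 10 of 27 were measured, and *FZD8* and *LGR5* rose while 8 did not pass. Of these 8, *ROR1* had an unadjusted p under 0.05 from limma, and its groups overlapped. Its log2 difference was 0.91 (standard error 0.36, adjusted p = 0.26 from limma). *FZD8* had a log2 difference of 3.81 (standard error 0.20, adjusted p = 2.4e-05 from limma). *LRP5* and *LRP6*, the co-receptors that DKK1 binds, had log2 differences of 0.25 (standard error 0.21) and 0.50 (standard error 0.29) and did not pass.

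In the cytoplasm 5 of 41 listed genes were measured, and 2 rose. *PRICKLE1*, a component of the planar cell polarity branch, had log2 signals of 6.41, 6.40, 6.65 and 6.49 in *HIST1H1A* clones 2, 8, 9 and 10, against 4.73, 4.92, 4.12 and 4.08 in control clones 3, 4, 8 and 9. The groups lay far apart, with a log2 difference of 2.02 (standard error 0.21, adjusted p = 0.00070 from limma). *BTRC*, which encodes the ubiquitin ligase subunit that marks beta-catenin for destruction, was 7.50, 6.96, 7.53 and 7.58 in *HIST1H1A* clones 2, 8, 9 and 10, against 5.02, 5.95, 5.52 and 6.25 in control clones 3, 4, 8 and 9. It rose by 1.71 on the log2 scale (standard error 0.27, adjusted p = 0.0068 from limma), with no overlap. *FRAT1*, *FRAT2* and *DAAM1* did not pass.

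Around *BCL9L* in the beta-catenin transcription complex, 6 of 28 other genes were measured and none passed with limma or with the methods' t-test, while 1, *HDAC1*, had an unadjusted p under 0.05. *BCL9*, the close relative of *BCL9L*, averaged 8.71 in *HIST1H1A* clones and 8.47 in control clones, a log2 difference of 0.24 (standard error 0.19, adjusted p = 0.69 from limma). *PYGO2*, the Pygopus partner, had a log2 difference of 0.15 (standard error 0.20). *LDB1*, *CTBP2*, *KDM2A* and *HDAC1* lay between -0.29 and 0.37.

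Among listed target genes of the pathway other than *DKK1*, 10 of 35 were measured, with 4 higher and 1 lower. *LGR5*, a receptor for R-spondins that stands in both lists, rose by 2.98 on the log2 scale (standard error 0.21, adjusted p = 0.00010 from limma). *JUN*, a subunit of the AP-1 factor, rose by 2.23 (standard error 0.28, adjusted p = 0.0022 from limma), and the hyaluronan receptor gene *CD44* by 0.92 (standard error 0.17, adjusted p = 0.014 from limma). *KLF5*, an epithelial transcription factor, rose by 0.68 (standard error 0.15, adjusted p = 0.032 from limma), and its call was lost in 8 of 16 other settings, among them without *HIST1H1A* clone 2, 8 or 9 or control clone 3, 4 or 8. The *CD44* call was lost without *HIST1H1A* clone 9. The cyclin gene *CCND1* fell, with log2 signals of 8.31, 7.67, 7.95 and 7.94 in *HIST1H1A* clones 2, 8, 9 and 10, against 8.70, 8.81, 8.86 and 8.78 in control clones 3, 4, 8 and 9 (log2 difference -0.82, standard error 0.14, adjusted p = 0.012 from limma). The targets thus differed in direction. The control mean of *CD44*, 2.78, and of *LGR5*, 3.09, lay below the median of all values.

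**Figure D3:**
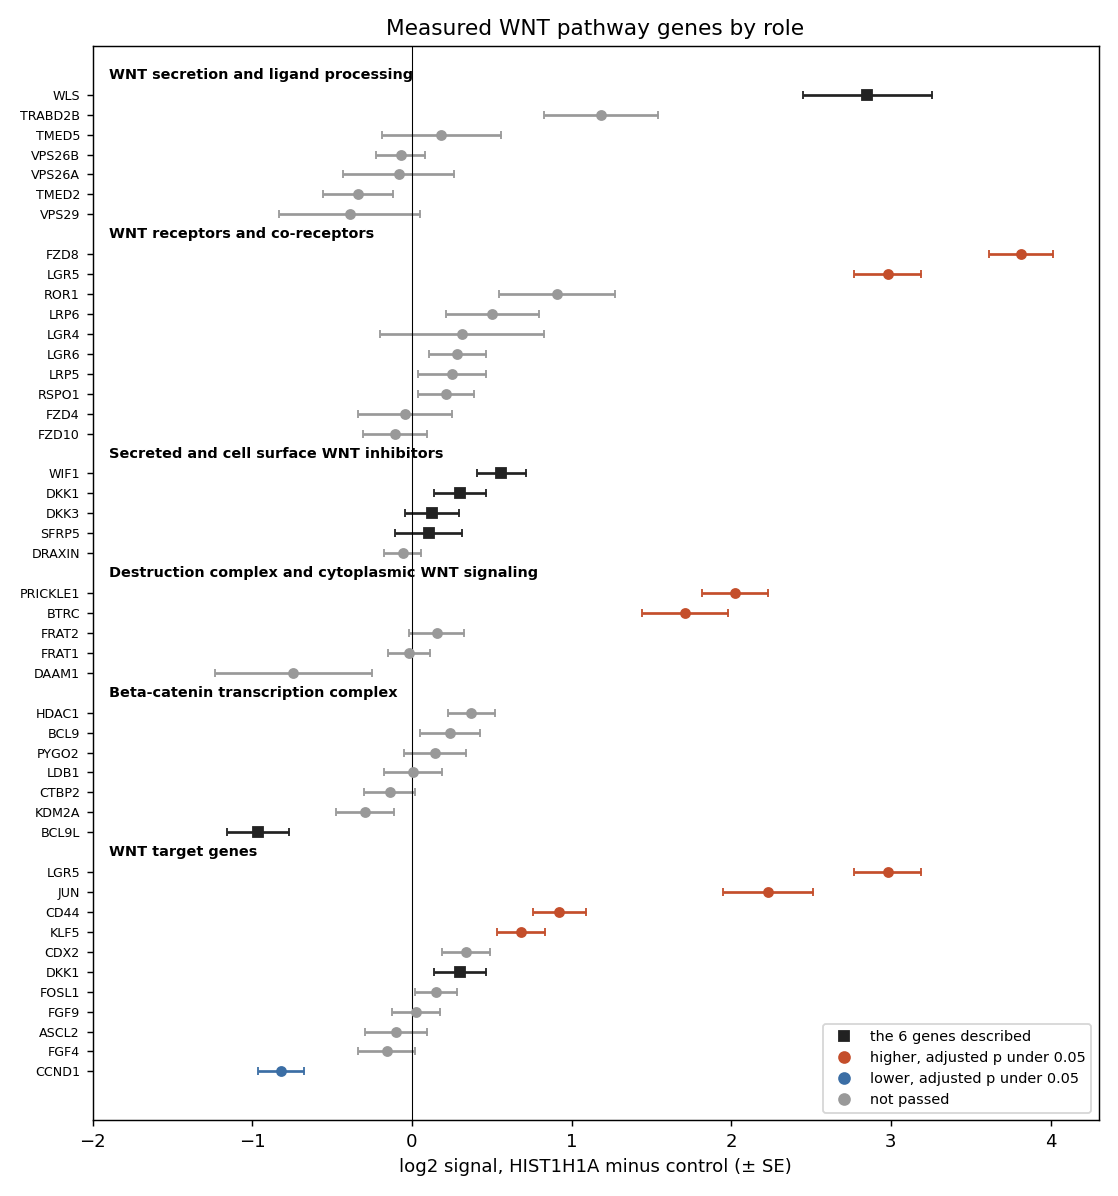
Log2 difference, *HIST1H1A* minus control, with its standard error (x axis) for every measured gene of the WNT lists, grouped by role from secretion to target genes. Black squares are the 6 genes described, red and blue points passed at an adjusted p under 0.05, and grey points did not pass. *FZD8*, *LGR5*, *WLS*, *JUN* and *PRICKLE1* lie above 2, and *BCL9L* and *CCND1* are lowest among genes that passed.

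The genes whose pattern was most like that of *WLS* over the 8 clones were *AZIN2*, *IRF2BP2* and *PRICKLE1*, at Pearson correlations of 0.993, 0.985 and 0.984, the highest among 4066 named genes. Since these arrays fall into 2 groups, such a value holds the difference between the groups as well as the pattern within them. After the group means were taken out, the correlations were 0.952, 0.890 and 0.913. Control clone 4 was the highest control clone in all of them, as it was in *WLS*. *IRF2BP2* was taken by its brightest cluster, and with the mean over its clusters its log2 difference was 0.67 in place of 1.58. *AZIN2*, which encodes an antizyme inhibitor, was at 4.99, 5.26, 5.36 and 5.36 in *HIST1H1A* clones 2, 8, 9 and 10, against 4.34, 4.58, 3.84 and 4.05 in control clones 3, 4, 8 and 9.

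For *BCL9L*, by its brighter cluster, the most alike were *CREB3L4*, *AGTRAP* and *MCF2L*, at 0.989, 0.984 and 0.983, and 0.947, 0.982 and 0.927 after the group means were taken out. *CREB3L4* is one of the luminal prostate markers listed above. Like *BCL9L*, *CREB3L4* was lowest in control clone 9 among the control clones and highest in control clone 4. For *WIF1* the nearest genes were *IFITM1*, *EDNRB* and *PAMR1* (0.969, 0.968 and 0.961), each lowest in clone 2 among the *HIST1H1A* clones. For *DKK1* they were *MIR548I1*, *GPC5* and *RPE65* (0.967, 0.964 and 0.954), for *DKK3* *CHD5*, *DNM3OS* and *RNPEP* (0.947, 0.936 and 0.932) and for *SFRP5* *PRDM16-DT*, *CREB3L1* and *LINC00900* (0.958, 0.954 and 0.948). None of these 9 passed the test between groups. After the group means were taken out, the correlations were 0.864 to 0.888 for the genes of *WIF1* and 0.927 to 0.951 for those of *DKK1*. They were 0.929 to 0.950 for those of *DKK3* and 0.952 to 0.973 for those of *SFRP5*. These correlations describe 8 arrays, and the genes were picked for them.

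**Figure D4:**
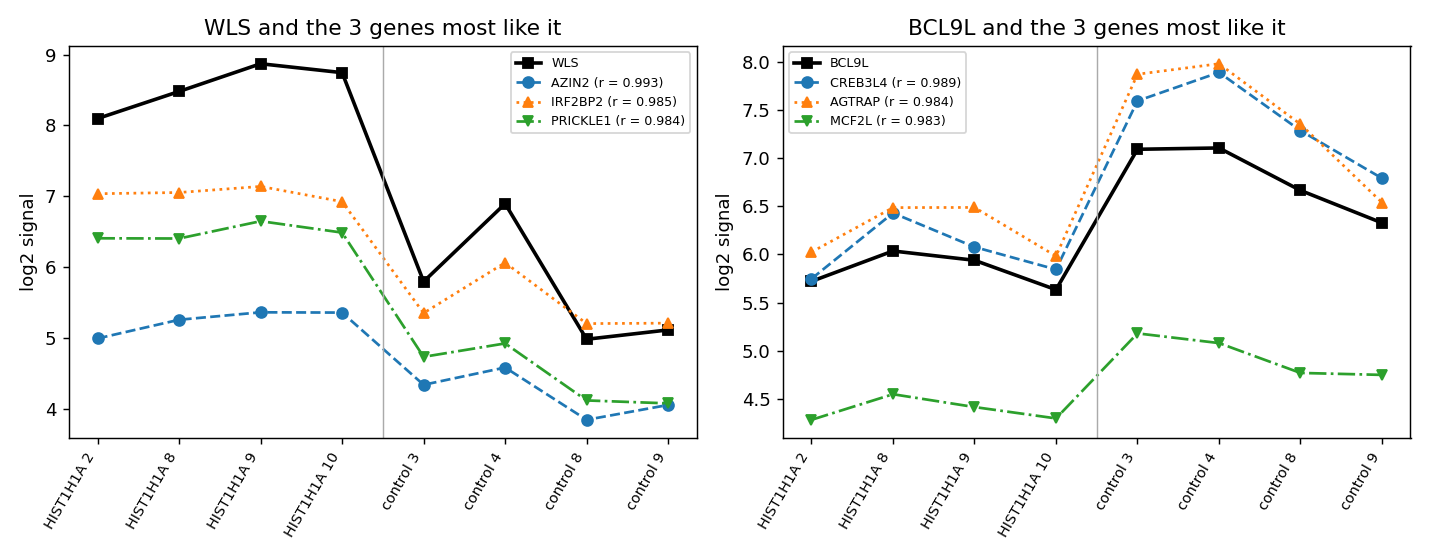
Log2 signal (y axis, not starting at 0) in each of the 8 clones (x axis) for *WLS* and the 3 genes most like it, left, and for *BCL9L* and the 3 most like it, right, with r over the 8 clones in the legend. Lines join the clones of a gene only to guide the eye. Control clone 4 is the highest control clone in *WLS* and in all 3 genes beside it.

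The genes next to the 6 on their chromosomes were measured in part. Of 60 neighbours, 5 on each side in RefSeq order, 18 were measured and 1 passed, while 5 had an unadjusted p under 0.05. Beside *WLS* on chromosome 1, the long non-coding RNA gene *GNG12-AS1*, which overlaps *WLS* in RefSeq, averaged 2.94 in *HIST1H1A* clones and 2.96 in control clones (log2 difference -0.01, standard error 0.11, adjusted p = 0.98 from limma). *MIR1262* had a log2 difference of 0.08. Both lay below the median of all values. Beside *WIF1* on chromosome 12, *MSRB3* had a log2 difference of 0.64 (standard error 0.16, adjusted p = 0.059 from limma) and did not pass. The neighbour that passed was *MARVELD1*, beside *SFRP5* on chromosome 10, with a log2 difference of 1.07 (standard error 0.24, adjusted p = 0.034 from limma). Its call was lost in 9 of 16 other settings, among them without *HIST1H1A* clone 8, 9 or 10 or control clone 3, 8 or 9. Beside *BCL9L* on chromosome 11, *DDX6*, *CXCR5*, *UPK2* and *FOXR1* lay between -0.19 and 0.23 and did not pass.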

How the data were processed

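Total RNA of 4 *HIST1H1A* and 4 control clonal isolates of LNCaP cells was measured by the authors on 8 Human Gene 2.0 ST arrays. Their deposited table holds log2 signals, 1 for each transcript cluster and array. The submitters name Partek; its version, background correction and summarization are not given in the sources used. The values entered the fit unchanged. Of 16377 clusters, 4247 carried 1 gene symbol of the platform annotation, 0 several and 12130 none here. The members and the gene lists were chosen with earlier results of these data known.

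The comparison used lmFit and eBayes of limma 3.58.1, under R 4.3.3, on all clusters, without covariates, with Benjamini-Hochberg adjustment and a call at an adjusted p under 0.05. No p-value is given for the 6 genes. For a gene with more than 1 cluster, the brightest by mean signal over all 8 arrays was taken. Named genes were all 6 members and every measured gene of a WNT list with 10 or fewer measured. For a longer list they were the 3 largest rises and falls that passed. Measured genes among 5 on each side and the 3 most alike of each member were named too. Not every one of these genes is given in the text above. The fit was tested on simulated data. Promoter sequences are from RefSeq, GRCh38.p14. Nothing says that clones were grown separately beyond being isolates, so p-values measure the spread between these arrays, whose number limits the precision. The alternatives were quantile normalization, median centring, Student's t-test, trend and robust settings, a filter on dim clusters and a fold minimum of 2. Further ones were named clusters only, the mean over clusters, leaving out each array, and arrays of clones 8 and 9 with and without the clone number as a block. The methods name Student's t-test for other assays of the study and not for the arrays.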

Additional observations from a re-analysis of the deposited data

Results flagged for a closer look

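In 13 of 158 groups of 4 clones tested, 1 clone stood apart from the others of its group, where chance gives about 7.9. The groups share the same 8 arrays and some genes were picked for likeness, so nothing is read from the difference between these counts. None of the 13 was in *WLS*, *WIF1*, *DKK1*, *DKK3*, *SFRP5* or *BCL9L*. Among WNT genes, *BTRC* was at a log2 signal of 6.96 in *HIST1H1A* clone 8, where the nearest other clone of the group was at 7.50. *FZD10* was at 3.15 in *HIST1H1A* clone 2, against 3.50, and *DRAXIN* at 3.83 in *HIST1H1A* clone 9, against 3.54. *LGR6* was at 4.28 in control clone 3, against 3.70, *ASCL2* at 5.27 in control clone 3, against 4.58, and *FGF4* at 4.10 in control clone 9, against 4.71. Among neighbouring genes, *MIR1262* was at 1.99 in control clone 8, against 2.22, *AVPI1* at 7.12 in *HIST1H1A* clone 10, against 7.30, and *CRTAC1* at 4.50 in *HIST1H1A* clone 2, against 5.02. *DDX6* was at 8.08 in *HIST1H1A* clone 8, against 8.77, and *CXCR5* at 2.58 in *HIST1H1A* clone 10, against 3.02. Among the genes chosen for likeness, *PAMR1* was at 3.59 in *HIST1H1A* clone 2, against 4.37, and *CREB3L1* at 3.35 in *HIST1H1A* clone 10, against 3.45.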

How the results depend on the processing

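The 948 changed clusters became 552 with Student's t-test, 618 with limma and a fold over 2 as well, and between 602 and 963 with any single array omitted. The cause of the difference with the t-test was not tested. Of the 7 clusters of the 6 genes, 2 were called, and 1 with the t-test, with a fold over 2 and with the mean over a gene's clusters, where *BCL9L* had a log2 difference of -0.56. *BCL9L* was the call lost in these 3 settings. With quantile normalization and over named clusters only 3 were called, *WIF1* in addition. Omitting any single array gave between 1 and 2, and *WIF1* was called in place of *BCL9L* without *HIST1H1A* clone 2. Of the WNT targets, 5 were called, 2 with a fold over 2, and between 3 and 5 with any single array omitted. Of the secretion genes other than *WLS*, 0 were called, and 1, *TRABD2B*, over named clusters only. Of the measured neighbours, 1 was called, 0 with quantile normalization and with the t-test, 2 over named clusters only, between 0 and 1 with any single array omitted, and 3 with array weights, a setting chosen after seeing the data. The numbers 8 and 9 were used for clones of both kinds and do not pair them, with correlations of 0.07 and -0.22 between same-numbered deviations. In these 4 arrays the log2 difference was 3.63 for *WLS*, 0.50 for *SFRP5* and -0.51 for *BCL9L*, with and without the replicate block. With the replicate block limma called 0 clusters (2103 at an unadjusted p under 0.05), and so 0 of the 6 genes, 0 WNT receptors, 0 cytoplasmic genes, 0 targets and 0 neighbours. Without the block it called 75 clusters, 1 of them *WLS*, and 2 WNT receptors, 1 cytoplasmic gene, 2 targets and 0 neighbours. Of 14 named genes outside the 6 that passed, 8 kept their call in each of the 16 settings with 7 or 8 arrays and without a fold minimum. No value of a gene that passed changed sign. The limits are 4 clones a group, low signals of *WIF1* and *DKK1*, and clusters whose strand was not checked.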
